A study of Mus musculus with 10 samples.

Results

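Proapoptotic target genes of the tumour suppressor p53 were examined in mouse thymus: Bbc3, Pmaip1, Fas, Tnfrsf10b, Eda2r, Aen, Trp53inp1 and Phlda3. A feature of the expression array was taken for a gene when the platform annotation gave it exactly 1 symbol and that symbol was on the list. All 8 genes were measured, each by 1 feature, out of 23332 features covering 14860 named genes. The thymi came from C57BL6/129 hybrid mice aged 4 to 5 weeks, in 4 groups that differed at both p53 and Mdm2. These were p53(-/-)mdm2(+/+) (3 samples, here p53-null, Mdm2 wild-type), p53(246/246)mdm2(+/+) (3 samples, mutant p53, Mdm2 wild-type), p53(-/-)mdm2(-/-) (2 samples, p53-null, Mdm2-null) and p53(246/246)mdm2(-/-) (2 samples, mutant p53, Mdm2-null). No group carried wild-type p53, no treatment was recorded, and the mutant allele is known from the labels by its number alone. The labels do not say whether replicates were separate animals, so the p-values measure only the spread between these samples, which may be technical.

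In a cell with functional p53, DNA damage stabilises the protein, which binds DNA as a tetramer and switches on genes that halt the cycle or kill the cell. Mdm2 binds p53 and marks it for degradation, and its own gene is a p53 target. Mice that lack Mdm2 die as embryos unless p53 is also removed or disabled. Thymocytes, the immature T cells that fill the thymus, are among the cell types that die most readily after irradiation, and that death needs p53. The targets act at several points: Bbc3 (Puma) and Pmaip1 (Noxa) are BH3-only proteins that neutralise the antiapoptotic Bcl2 family at the mitochondrion, Fas and Tnfrsf10b are death receptors, and Eda2r is a related receptor. Aen is a nuclease that digests DNA in dying cells, Trp53inp1 is a nuclear cofactor that supports p53 phosphorylation, and Phlda3 blocks the survival kinase Akt at the membrane.

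Promoter windows from RefSeq (build GRCm38.p6) were read for the decamer that p53 recognises, which is known as its consensus element and normally occurs as a pair. Windows of 300 bases, from 250 before to 50 after each start, were matched for 5 of the 8 genes: Bbc3, Fas, Eda2r, Aen and Phlda3. Pmaip1, Tnfrsf10b and Trp53inp1 have no window here. An exact match to the decamer, searched on both strands, was present in 8.36% of all 32851 windows, and a pair separated by 0 to 13 bases in 0.0731%. No mismatch was allowed, so a site that departs from the decamer at any base is not counted. Among the 5 genes, only Aen held a match, a single decamer that lay 10 bases after the first of its listed starts and 121 bases before the second. The well-known targets Cdkn1a and Mdm2 are printed beside it for comparison, with decamers in capitals. The Aen stretch is chr7:78895927-78895956 on the plus strand, the Cdkn1a stretch chr17:29090897-29090946 on the plus strand, and the Mdm2 stretch chr10:117710915-117710964 on the minus strand.
Aen: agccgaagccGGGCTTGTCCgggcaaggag
Cdkn1a: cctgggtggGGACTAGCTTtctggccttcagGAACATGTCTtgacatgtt
Mdm2: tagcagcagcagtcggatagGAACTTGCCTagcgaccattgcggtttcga
The pair in Cdkn1a began 73 and 51 bases before its first listed start. The window of the other listed Cdkn1a start, chr17:29093519-29093818, lies further downstream and held no exact match. The single match in Mdm2 began 186 bases before its start. The windows upstream of Bbc3 (first listed start, chr7:16309333-16309582, plus strand) and Fas (chr19:34290409-34290658, plus strand) are shown as windows with no exact match, so no letters are in capitals. Lower case there does not mean that the stretch lacks a p53 element, since inexact sites were not searched.
Bbc3: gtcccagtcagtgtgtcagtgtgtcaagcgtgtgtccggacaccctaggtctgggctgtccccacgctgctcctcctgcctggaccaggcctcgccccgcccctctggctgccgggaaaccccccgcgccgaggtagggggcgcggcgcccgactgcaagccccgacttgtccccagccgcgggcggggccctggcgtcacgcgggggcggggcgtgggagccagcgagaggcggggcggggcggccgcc
Fas: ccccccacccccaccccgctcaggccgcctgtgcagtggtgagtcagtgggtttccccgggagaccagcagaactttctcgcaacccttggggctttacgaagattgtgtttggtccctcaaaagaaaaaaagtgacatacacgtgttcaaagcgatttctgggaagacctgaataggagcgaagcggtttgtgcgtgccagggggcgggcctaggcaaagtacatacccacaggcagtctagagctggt
Known p53 elements of some of these genes lie further away, in introns or distant upstream sequence, which these windows do not reach. Elements inside a window are missed as well where they depart from the exact decamer. The GC content of the windows was 76%, 74.7% and 78% for the 3 starts of Bbc3, 71.7% for Phlda3, 58% and 63.3% for Aen, 59% for Fas and 50.3% for Eda2r.

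Signals are processed log2 values as deposited, and a difference of 1 on this scale is a 2-fold difference. Sample medians over all features lay between 6.10 and 6.26. Of the 11 measured markers of double positive thymocytes, the most numerous cells of the thymus, 10 were above the sample median in every sample. Cd8a lay between 12.4 and 12.8 and Cd4 between 10.7 and 11.4, while Cplx2, the exception, lay between 4.38 and 4.78, and Ptcra between 7.12 and 8.07. Prss16, a serine protease of cortical thymic epithelium, lay between 11.3 and 11.9. Mdm2 followed its genotype, at 9.47 to 9.62 in the 6 Mdm2 wild-type samples and 8.28 to 8.43 in the 4 Mdm2-null samples (difference -1.19, SE 0.07, adjusted p = 9.24e-05 by limma, Benjamini-Hochberg). The p53 transcript was not analysed here. Array names carry 1 prefix for both Mdm2 wild-type groups and another for each Mdm2-null group, so any difference that involves an Mdm2-null group cannot be told apart from a difference between sets of arrays. The p53 effect with wild-type Mdm2 lies within 1 prefix. A list of 18 liver genes, 14 of them measured, had a mean signal of 3.98 to 4.39 in the Mdm2 wild-type samples and of 5.87 to 8.67 in the Mdm2-null samples. The mean of the Y-linked genes Kdm5d and Eif2s3y was 8.49 to 9.35 in 9 samples and 3.59 in replicate 1 of the p53-null, Mdm2 wild-type group. In whole thymus, fewer cells of a type and less RNA per cell cannot be told apart.

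The first question was whether thymi with the mutant p53 allele express the proapoptotic targets differently from thymi with no p53. None of the 8 genes passed the test in either Mdm2 background or over both. With wild-type Mdm2, 0 of 8 passed (limma, Benjamini-Hochberg, adjusted p under 0.05), beside 0% of all 23332 features, and 0 of 8 had an unadjusted p under 0.05, beside 2.96% of all features. The log2 differences, mutant minus null, ran there from -0.18 for Phlda3 to 0.28 for Bbc3, and the groups did not overlap for 0 of 8 genes, beside 7.67% of all features. With Mdm2 null, 0 of 8 passed, beside 0% of all features, and 0 of 8 had an unadjusted p under 0.05, beside 3.87%. The 2 mutant samples lay apart from the 2 null samples there for 2 of 8 genes, Tnfrsf10b and Trp53inp1, beside 27.7% of all features in either direction. In the additive model over both backgrounds, 0 of 8 passed, beside 0% of all features, and 1 of 8 had an unadjusted p under 0.05, beside 2.54%. The groups did not overlap for 0 of 8, beside 0.223% of all features. Over both backgrounds the differences ran from -0.08 for Trp53inp1 to 0.22 for Tnfrsf10b, with a median of -0.01, beside 0.00 over all features. The 95% intervals of the 8 genes lay within -0.38 and 0.44, and the widest bound is a 1.36-fold difference.

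The second question was whether loss of Mdm2 goes with a different level of these genes where p53 is absent or mutant. Again 0 of 8 genes passed. Over both p53 genotypes Pmaip1 and Trp53inp1 had the largest differences of the 8, and for both the 4 samples without Mdm2 were the 4 lowest. In the p53-null samples 0 of 8 passed, beside 0.0214% of all features, and 1 of 8 had an unadjusted p under 0.05, beside 10.7%. In the mutant p53 samples 0 of 8 passed, beside 0.0129%, and 2 of 8 had an unadjusted p under 0.05, beside 16.4%. Over both p53 genotypes 0 of 8 passed, beside 3.87% of all features, and 2 of 8 had an unadjusted p under 0.05, beside 21%. The groups did not overlap, with lower values in Mdm2-null thymus, for 2 of 8 genes, beside 4.52% of all features. Differences, Mdm2-null minus wild-type, ran from -0.51 for Pmaip1 to 0.22 for Phlda3, with a median of -0.01, beside -0.02 over all features. The widest 95% bound of the 8 genes is a 1.77-fold difference. When the p53 difference with Mdm2 was tested against the p53 difference without it, 0 of 8 passed, beside 0% of all features, and 0 of 8 had an unadjusted p under 0.05, beside 4.27%.

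**Figure D1:**
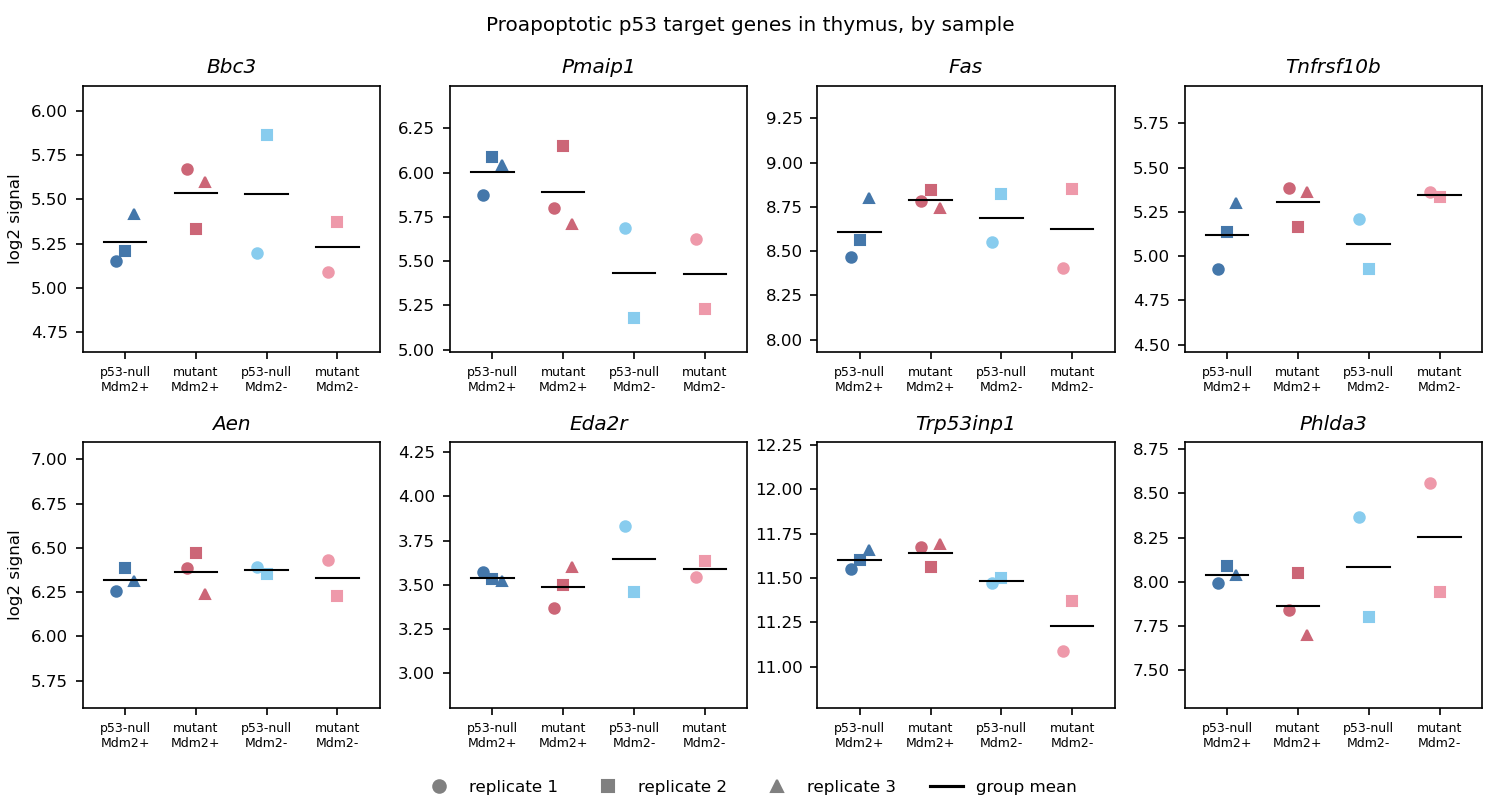
Each panel plots the log2 signal (vertical axis, 1.5 log2 units tall in every panel) of 1 gene in the 10 thymus samples by genotype group (horizontal axis), with 1 point per sample and a bar at the group mean. The 4 Mdm2-null samples lie below all 6 Mdm2 wild-type samples for Pmaip1 and Trp53inp1 and overlap with them for the other 6 genes.

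Bbc3 encodes Puma, the BH3-only protein that mouse thymocytes depend on most for p53-driven death. Its signal was 5.15, 5.21 and 5.42 in the p53-null, Mdm2 wild-type samples and 5.67, 5.33 and 5.60 in the mutant p53, Mdm2 wild-type samples. It was 5.20 and 5.87 in the p53-null, Mdm2-null samples and 5.09 and 5.37 in the mutant p53, Mdm2-null samples. The highest value was in a p53-null thymus and the lowest in a mutant one, both without Mdm2, and all groups overlapped. Mutant and null samples differed by 0.28 with wild-type Mdm2 (SE 0.19) and by -0.30 with Mdm2 null, and the difference between these effects was -0.58 (adjusted p = 0.995 by limma, Benjamini-Hochberg). Over both p53 genotypes, Mdm2-null samples differed by -0.02 (SE 0.17, 95% interval -0.39 to 0.36).

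Pmaip1 encodes Noxa, a BH3-only protein that binds chiefly Mcl1. Its signal was 5.87, 6.09 and 6.05 in the p53-null, Mdm2 wild-type samples and 5.80, 6.15 and 5.71 in the mutant p53, Mdm2 wild-type samples. Without Mdm2 it was 5.69 and 5.18 in the p53-null samples and 5.62 and 5.23 in the mutant samples. The Mdm2-null samples all lay below the Mdm2 wild-type samples, though 5.69 and 5.71 nearly met, and within each Mdm2-null group replicate 2 was the lower. The mean was 5.94 ± 0.18 (SD, n = 6) with Mdm2 and 5.43 ± 0.26 (SD, n = 4) without, a difference of -0.51, or 1.43-fold. This difference had an SE of 0.14 and a 95% interval of -0.82 to -0.21, and missed the threshold (adjusted p = 0.0677 by limma, Benjamini-Hochberg). It was -0.57 in the p53-null samples (adjusted p = 0.38) and -0.46 in the mutant samples (adjusted p = 0.305). Between mutant and null p53 the difference was -0.07 over both Mdm2 backgrounds (SE 0.13).

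Fas is the death receptor of Fas ligand. It stood at 8.47, 8.56 and 8.80 in the p53-null, Mdm2 wild-type samples, at 8.78, 8.84 and 8.74 in the mutant, Mdm2 wild-type samples, at 8.55 and 8.82 in the p53-null, Mdm2-null samples and at 8.40 and 8.85 in the mutant, Mdm2-null samples. The groups overlapped throughout. The p53 difference over both backgrounds was 0.08 (SE 0.12, 95% interval -0.18 to 0.34) and the Mdm2 difference -0.04 (SE 0.12, 95% interval -0.31 to 0.22). Its ligand Fasl, given although it lies outside the rule for named genes, ranged from 3.80 to 4.37 over the 10 samples.

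Tnfrsf10b, the only mouse death receptor for the ligand Trail, stood at 4.93, 5.14 and 5.30 in the p53-null, Mdm2 wild-type samples and at 5.38, 5.17 and 5.37 in the mutant, Mdm2 wild-type samples. It stood at 5.21 and 4.93 in the p53-null, Mdm2-null samples and at 5.36 and 5.34 in the mutant, Mdm2-null samples. In all, 4 of the 5 mutant samples were above every p53-null sample, and the remaining one lay inside the null range. The mean was 5.10 ± 0.17 (SD, n = 5) in p53-null and 5.32 ± 0.09 (SD, n = 5) in mutant thymus, a difference of 0.22 or 1.17-fold. The SE was 0.10 and the 95% interval 0.00 to 0.44, with an adjusted p of 1 by limma, Benjamini-Hochberg. Within the Mdm2-null samples, where the difference was 0.28, the groups did not overlap, the mutant samples being higher. The Mdm2 difference was 0.00 (SE 0.10).

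Eda2r, the receptor of ectodysplasin A2, was dim on these arrays: its values, 3.37 to 3.83, were under the lower quartile in 10 of 10 samples, so it may not have been above background. The p53 difference over both backgrounds was -0.06 (SE 0.09) and the Mdm2 difference 0.10 (SE 0.09). Its ligand gene Eda, also outside the rule, ranged from 4.16 to 4.57. The receptor's values overlapped between the p53 genotypes and between the Mdm2 genotypes.

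Aen, the apoptosis-enhancing nuclease whose window carries the decamer, had the narrowest span of group means of the 8 genes. Its values spanned 6.24 to 6.47 in the Mdm2 wild-type samples and 6.23 to 6.43 in the Mdm2-null samples. The mutant samples held both ends of each range, and the p53-null values lay inside them. The p53 difference was 0.01 (SE 0.08, 95% interval -0.17 to 0.19), and the Mdm2 difference was 0.01 (SE 0.08, 95% interval -0.17 to 0.19).

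Trp53inp1 had the signal 11.55, 11.60 and 11.66 in the p53-null, Mdm2 wild-type samples and 11.67, 11.56 and 11.69 in the mutant, Mdm2 wild-type samples. Without Mdm2 it was 11.47 and 11.50 in the p53-null samples and 11.09 and 11.37 in the mutant samples. The 4 values without Mdm2 were all below the 6 values with it, and the mutant, Mdm2-null pair was lowest of all. The mean was 11.62 ± 0.06 (SD, n = 6) with Mdm2 and 11.36 ± 0.19 (SD, n = 4) without. That difference of -0.27, or 1.20-fold, had an SE of 0.09 and missed the threshold (adjusted p = 0.135 by limma, Benjamini-Hochberg). It was -0.41 in the mutant samples (SE 0.12, adjusted p = 0.155) and -0.12 in the p53-null samples (adjusted p = 0.793), and the difference between these was -0.30 (adjusted p = 0.995 by limma, Benjamini-Hochberg). Leaving out mutant, Mdm2-null replicate 1, the lowest sample, moved the Mdm2 difference to -0.18.

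Phlda3 stood at 7.99, 8.09 and 8.04 in the p53-null, Mdm2 wild-type samples and at 7.84, 8.05 and 7.70 in the mutant, Mdm2 wild-type samples. It stood at 8.37 and 7.80 in the p53-null, Mdm2-null samples and at 8.56 and 7.94 in the mutant, Mdm2-null samples. The highest values were both replicate 1 of an Mdm2-null group, while their partners lay inside the Mdm2 wild-type range. The Mdm2 difference was 0.22 (SE 0.16, adjusted p = 0.496 by limma, Benjamini-Hochberg) and the p53 difference -0.04 (SE 0.15).

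**Figure D2:**
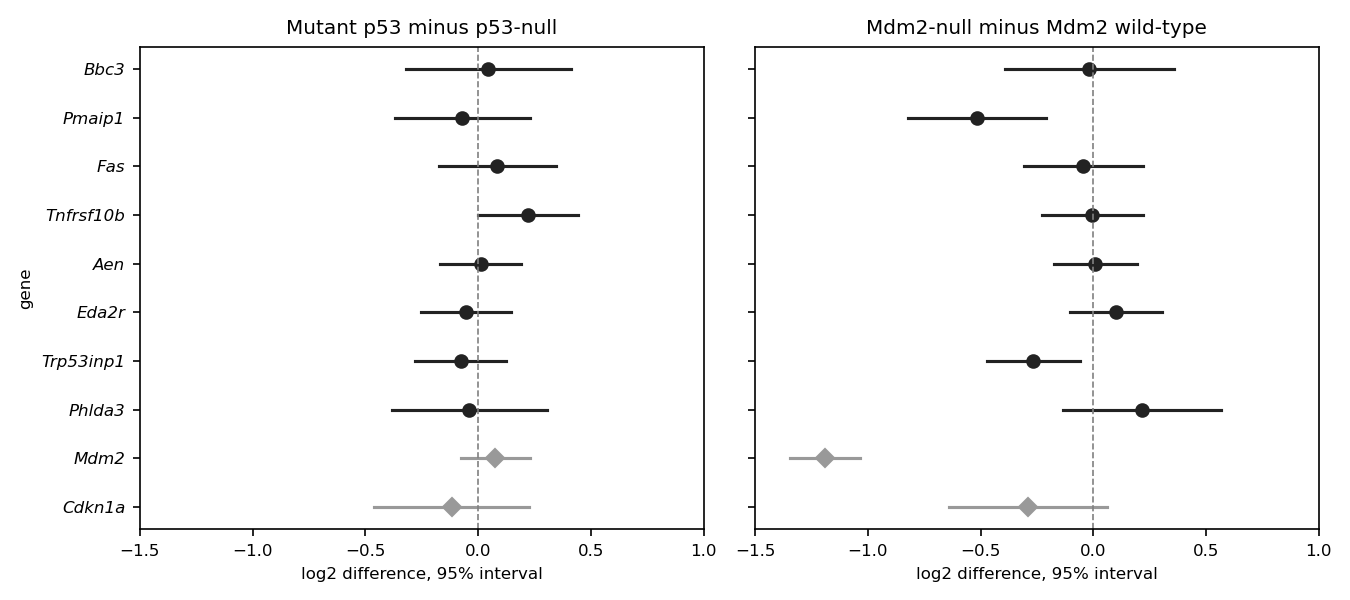
Points are log2 differences and lines their 95% intervals (horizontal axis) for the 8 genes in black and for Mdm2 and Cdkn1a in grey (vertical axis), over both backgrounds of the other gene; left, mutant p53 minus p53-null, and right, Mdm2-null minus Mdm2 wild-type. On the left all 8 intervals lie between -0.38 and 0.44, and on the right Pmaip1 at -0.51 and Trp53inp1 at -0.27 are the lowest of the 8, neither past the threshold.

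The liver genes moved with Mdm2 as well, and their values stand beside the Pmaip1 and Trp53inp1 values here. In the p53-null, Mdm2-null samples the liver list mean was 5.87 in replicate 1 and 8.67 in replicate 2, where Pmaip1 was 5.69 and 5.18. In the mutant, Mdm2-null samples it was 6.96 and 8.46, where Pmaip1 was 5.62 and 5.23. So the samples with the higher liver mean had the lower Pmaip1 in each Mdm2-null group. For Trp53inp1 this order did not hold, since its lowest value, 11.09, was in the sample with a liver mean of 6.96. With wild-type Mdm2, the Pmaip1 order was the same in the p53-null samples and the opposite in the mutant samples. In those mutant samples, liver means of 4.21, 4.25 and 4.15 went with Pmaip1 at 5.80, 6.15 and 5.71. With the liver list mean as a covariate, the Pmaip1 Mdm2 difference was 0.13 (adjusted p = 0.953 by limma, Benjamini-Hochberg). Its SE went from 0.14 to 0.26, as the covariate and the Mdm2 genotype separate the same samples. The Trp53inp1 difference in that fit was -0.37 (adjusted p = 0.759 by limma, Benjamini-Hochberg). Adipocyte genes had list means of 5.39 to 6.63 with Mdm2 and 5.92 to 7.54 without, erythroid genes 4.73 to 5.00 and 4.88 to 6.08, and double positive thymocyte genes 10.3 to 10.4 and 10.1 to 10.4. With the adipocyte list mean as a covariate, the Mdm2 difference was -0.45 for Pmaip1 (adjusted p = 0.417 by limma, Benjamini-Hochberg) and -0.31 for Trp53inp1 (adjusted p = 0.404). With the thymocyte list mean it was -0.74 for Pmaip1 (adjusted p = 0.058) and -0.20 for Trp53inp1 (adjusted p = 0.443). The Pmaip1 estimate was negative with these 2 covariates and positive with the liver covariate, where its SE was larger than the estimate. Liver means do not overlap between the Mdm2 genotypes, while the means of these 2 lists do, so the fits are not comparable. Whether liver tissue accounts for the difference was not tested. Mdm2 itself did not pass with the liver covariate (-1.25, adjusted p = 0.108 by limma, Benjamini-Hochberg).

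**Figure D3:**
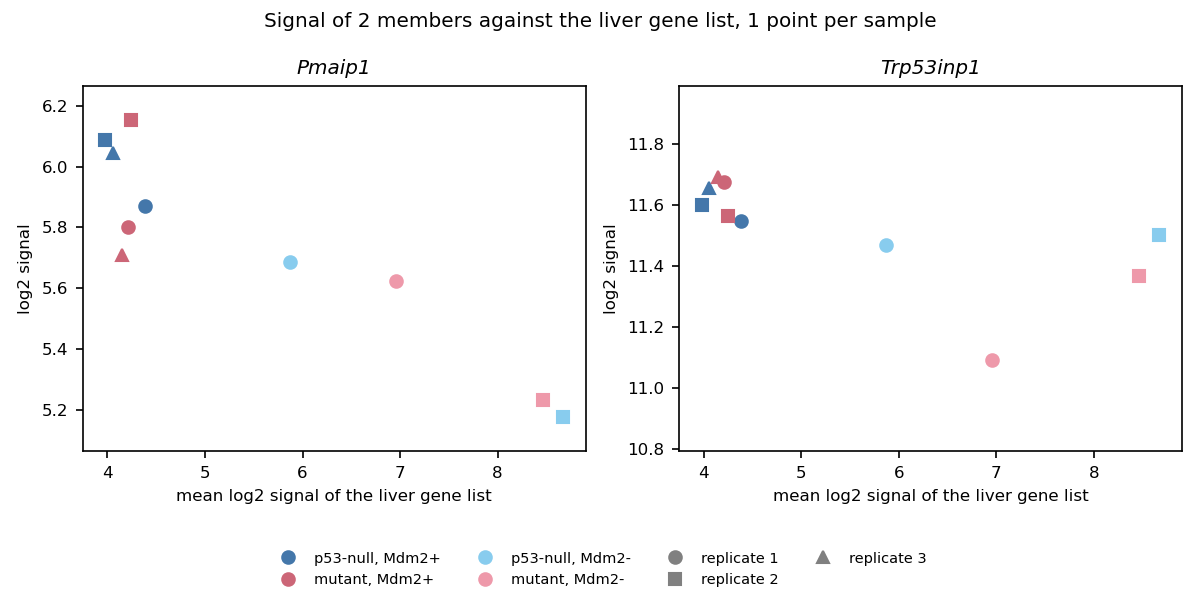
The log2 signal of Pmaip1 (left) and Trp53inp1 (right) in each sample (vertical axis) is plotted against the mean log2 signal of the 14 measured liver genes (horizontal axis), with colours for the groups. The Mdm2 wild-type samples sit at 3.98 to 4.39 on the horizontal axis, and Pmaip1 is lowest, at 5.18 and 5.23, in the Mdm2-null samples with the highest liver means.

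Of the genes around these targets, none passed for p53 genotype and several passed for Mdm2. The lists read were the core mitochondrial apoptosis genes, death receptor signalling, other p53 targets, and the p53 family with its regulators. For mutant against null p53, 0 genes passed in each list over both Mdm2 backgrounds, as for all features. The smallest p-values belonged to Bcl2l11 (Bim), another BH3-only gene (log2 difference -0.28), and Htra2 (0.11) in the first list, Edaradd (-0.26) and Cflar (0.17) in the second, Zfp365 (-0.23) and Siva1 (0.43) in the third, and Mdm4 (-0.17) and Kat5 (-0.11) in the fourth. All 8 had an adjusted p of 1 by limma, Benjamini-Hochberg. Cdkn1a, the cell-cycle inhibitor that is the best-known p53 target, differed by -0.12 between p53 genotypes and by -0.29 with loss of Mdm2 (adjusted p = 0.341), so it did not pass either.

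With loss of Mdm2, 1 of 18 measured mitochondrial apoptosis genes fell and 0 rose, beside 1.9% and 1.96% of all features (444 and 458, or 277 and 539 after centring each sample on its median). Xiap, an inhibitor of caspases, fell by 0.38 (adjusted p = 0.0496 by limma, Benjamini-Hochberg). Its lowest value with Mdm2 was 8.83 and its highest without was 8.73, so the groups did not overlap. In death receptor signalling 1 of 13 rose and 1 fell. Tnfsf10, which encodes Trail, fell by 0.59 (adjusted p = 0.024), from 6.90 to 7.25 with Mdm2 to 6.29 to 6.64 without. Cflar, which encodes the caspase-8 inhibitor c-Flip, rose by 0.53 (adjusted p = 0.0318), from 10.3 to 10.9 with Mdm2 to 11.0 to 11.3 without. Among the other p53 targets, 2 of 27 fell, Mdm2 itself and the antiproliferative gene Btg2, by 0.48 (adjusted p = 0.0384 by limma, Benjamini-Hochberg). The list's median difference was -0.15, beside -0.02 over all features. It was -0.14 for the double positive thymocyte list and -0.03 for the mitochondrial apoptosis list. Mdm4, the relative of Mdm2 that holds p53 in check, was the 1 of 14 genes in the last list that fell, by 0.44 (adjusted p = 0.0365). Of these 6 genes, only Mdm2 passed within a single p53 genotype, where it did so in both.

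These calls were close to the threshold and depend on single samples. Tnfsf10 did not pass without mutant, Mdm2-null replicate 1, p53-null, Mdm2-null replicate 2, or mutant, Mdm2 wild-type replicate 1 or 3 (adjusted p = 0.051 to 0.0581 by limma, Benjamini-Hochberg). Cflar passed when any of p53-null, Mdm2 wild-type replicate 1 or 3 or mutant, Mdm2 wild-type replicate 2 was left out and otherwise did not (adjusted p up to 0.0914). Btg2 passed only without p53-null replicate 2 of either Mdm2 group (adjusted p up to 0.108), Mdm4 only without mutant, Mdm2 wild-type replicate 2 (adjusted p up to 0.108), and Xiap in none of the 10 fits that leave out 1 sample (adjusted p up to 0.132). Mdm2 passed in all 10.

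**Figure D4:**
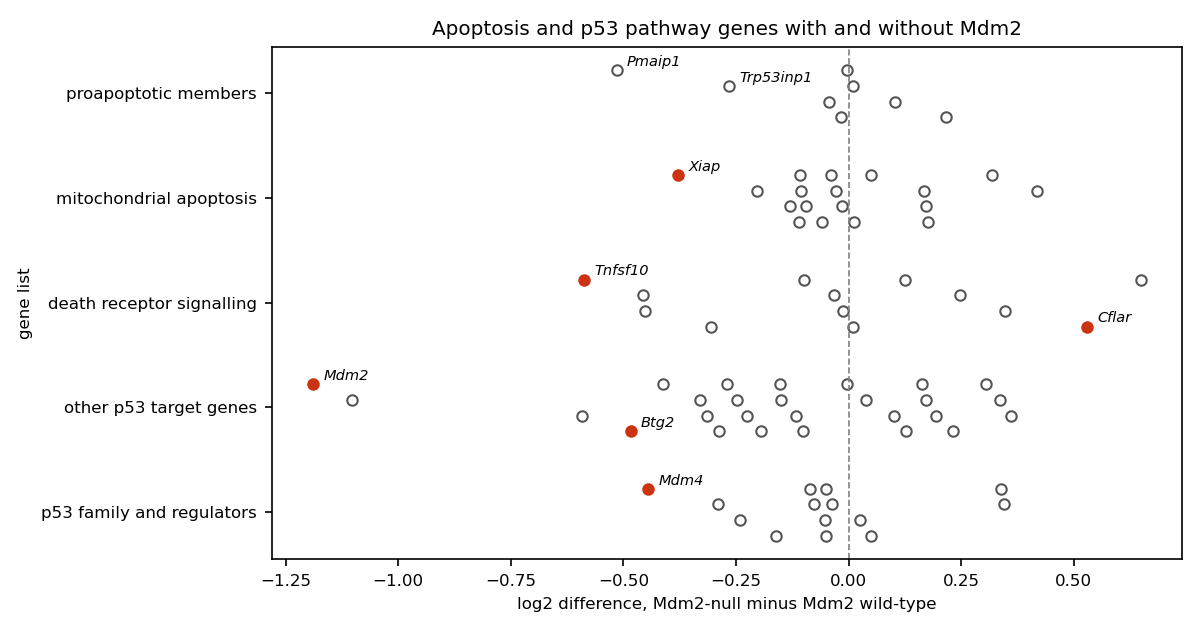
Each circle is 1 gene, placed by its log2 difference, Mdm2-null minus Mdm2 wild-type over both p53 genotypes (horizontal axis), in 5 gene lists (vertical axis, spread only for visibility); filled circles passed an adjusted p of 0.05. Pmaip1 at -0.51 and Trp53inp1 at -0.27 did not pass, and 6 genes from the other lists did.

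The 8 genes did not all move in the same direction across the 10 samples. Pearson's r between pairs of genes, given as a description over samples that share groups and arrays, ranged from -0.778 for Bbc3 with Phlda3 to 0.735 for Bbc3 with Fas over the 28 pairs. It had a median of -0.0681 and was positive in 13 of 28 pairs. Taken on deviations from the group means, r ran from -0.83 for Bbc3 with Phlda3 to 0.941 for Pmaip1 with Phlda3. The latter pair had an r of 0.15 when group means were left in. In the Mdm2-null groups, of 2 samples each, the deviations mirror each other. These values of r therefore rest on fewer independent values than 10. Standard deviations within groups lay between 0.0955 and 0.263 for the 8 genes, beside a median of 0.198 over all features. The genes whose pattern over the 10 samples was most like that of each were read from 14859 other genes. For Bbc3 these were Desi1 (r = 0.948), Nr2c1 (0.936) and Pik3ip1 (0.932), and for Pmaip1 Olfml3 (0.976), Hpgds (0.945) and Reps2 (0.945). For Fas they were Ica1l (0.947), Zdhhc5 (0.93) and Ranbp9 (0.917), and for Tnfrsf10b Dapk2 (0.93), Nek4 (0.908) and Exosc2 (0.894). For Eda2r they were Tctex1d4 (0.971), Trim46 (0.93) and Krt222 (0.926), and for Aen Itm2c (0.945), Serhl (0.929) and Dbnl (0.906). For Trp53inp1 they were Sp4 (0.977), Ikzf1 (0.968) and Ralgapa1 (0.962), and for Phlda3 Prom2 (0.956), Ctsf (0.937) and Tmem47 (0.931). These are the 3 highest of 14859 values of r for each gene, over only 10 samples.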

How the data were processed

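Affymetrix whole-transcript arrays were used for 10 thymus samples of 4 genotypes. RNA was isolated with Trizol and RNeasy columns, depleted of ribosomal RNA and labelled with biotin, per the labels' protocols. Partek 6.5 and build mm8 are named, per the submitters' processing notes; the normalization is not given in the sources used here. The deposited values are log2 signals and were used as they stand. Of 23332 features, 14996 have 1 gene symbol, 1019 several and 7317 none.

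All features were fitted in R 4.3.3 with limma 3.58.1 (two-sided, lmFit then eBayes), and p-values were adjusted by Benjamini-Hochberg over all features, with a threshold of 0.05. Group means gave the comparisons of 2 groups, and an additive model the effects over both backgrounds. The number of arrays limits the precision. In simulated data 200 features were changed, in equal numbers by 1.5-, 2-, 4- and 8-fold. The larger changes ease the adjusted threshold, so a small change on its own would be recovered less often than given here. For Mdm2 over both p53 genotypes, 46% of 1.5-fold and 60% of 2-fold changes were recovered. For p53 over both Mdm2 backgrounds it was 44% and 68%. Between 2 groups, 1.5-fold and 2-fold changes were recovered at 28% and 46% for p53 with wild-type Mdm2, 0% and 30% for p53 with Mdm2 null, 20% and 52% for Mdm2 in p53-null, and 8% and 36% for Mdm2 in mutant p53, and at 0% and 22% for the difference of the p53 effects.

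Named genes are the 8 members, Mdm2, Cdkn1a, the genes of the 4 pathway lists that passed (otherwise the 2 of smallest p) and the 3 most correlated genes of each member. Marker genes and the ligands Fasl and Eda are named outside this rule, after their values were seen. Members, lists and rules were chosen with earlier results of these data known. Same-numbered samples were not taken as pairs. Their deviations from the group means correlated at -0.189 to 0.191, and those of differently numbered samples at -0.206 to 0.23. In groups of 2 samples the deviations mirror each other, so these values cannot settle whether samples were paired. Alternatives were centring, quantile normalization, filters on dim features, marker covariates, eBayes with trend, a plain linear model, the replicate block and leaving out samples.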

Additional observations from a re-analysis of the deposited data

How the results depend on the processing

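Each comparison was refitted under 23 or 24 alternatives, and none of the 8 genes passed in any of them but 1 (filters on dim features kept 7 and 4 of the 8). Leaving out both Mdm2-null samples numbered 1, an alternative chosen after seeing the data, gave 1 of 8 for Mdm2-null against wild-type over both p53 genotypes, which was Pmaip1 (-0.74, adjusted p = 0.043 by limma, Benjamini-Hochberg). Leaving out both numbered 2 gave -0.29 (adjusted p = 0.348). The Pmaip1 difference changed sign with the liver list mean as a covariate, to 0.062 in p53-null, 0.25 in mutant p53 and 0.13 over both, and was -0.60 to -0.40 when 1 sample was left out. Signs were compared only where the 95% interval of the main fit excluded 0. In the liver fits the Pmaip1 SE was larger than the estimate each time, at 0.28, 0.31 and 0.26. Trp53inp1 stayed between -0.37 and -0.18 for Mdm2 over both p53 genotypes, with an adjusted p of at least 0.0819. With the replicate number as a block, 0 of 8 genes passed for each comparison, with Pmaip1 at -0.55 (adjusted p = 0.166) and Trp53inp1 at -0.24 (adjusted p = 0.342), and 61 features passed for Mdm2 over both p53 genotypes. The count of features passing there was 902, and 114 (without mutant, Mdm2-null replicate 2) to 776 (without p53-null, Mdm2-null replicate 1) when 1 sample was left out, 5 with the liver covariate, 3 with the adipocyte covariate, 323 with the thymocyte covariate, 453 with a plain linear model, 105 and 497 without both Mdm2-null samples numbered 2 or 1, 816 after median centring (539 higher and 277 lower, against 458 and 444), 1095 after quantile normalization and 1300 without the dimmer 50% of features, a filter that removes Pmaip1. For Mdm2 in p53-null it was 5, and 0 to 146 under alternatives, and in mutant p53 3, and 0 to 172. For the list genes, Xiap, Tnfsf10, Cflar, Btg2 and Mdm4 did not pass with the liver covariate or the replicate block. Mdm2 did not pass with the liver covariate (adjusted p = 0.108 by limma, Benjamini-Hochberg), and Xiap, Btg2 and Mdm4 not after median centring. With the adipocyte covariate Mdm2 was the 1 lower feature that passed (adjusted p = 0.0146 by limma, Benjamini-Hochberg). Xiap, Tnfsf10, Btg2 and Mdm4 therefore did not pass in that fit. Where leaving out a sample left 1 in a group, that sample was assumed to vary like the others.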
